A study of Mus musculus with 6 samples.

Results

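The genes of mouse chromosome 8 were followed along the chromosome in 6 cultured mammary cell lines. A gene was taken when the deposited table placed it on chromosome 8 and its counts summed to at least 300 over the 6 lines. This gave 625 members out of 1209 chromosome 8 genes, while 584 lay below the minimum. The whole table holds 23449 genes, of which 11587 reached the same minimum on all chromosomes. The members were ordered by gene start, from 3122061 to 129252998 on GRCm38, and divided into 13 fixed windows of 10 Mb that held between 10 and 97 members each. Members were chosen by the summed count alone, which favours neither group of lines. The chromosome and the split of lines described first were, however, picked after the lines' values on it had been seen, and that split is therefore given as a description without a test. The members nearest above the minimum were Mcf2l, Foxf1 and Maf, with 302, 304 and 318 counts. The genes nearest below it were Gm32856, Yjefn3 and Irf8, with 298, 295 and 289 counts.

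All 6 lines were FVB/N female mouse mammary lines, and their medium held doxycycline at 10 ug/mL, pituitary extract, insulin, EGF and serum. EIC_4026, EIC_NT and EIC_7559 have the genotype EIC/WT. 16IC_1984, 16IC_4982 and 16IC_7391 have the genotype 16IC/WT. As background that the labels do not state, doxycycline induces wild-type ErbB2 (HER2) in EIC, and in 16IC it induces a HER2 splice form without exon 16. Every line received doxycycline, so no uninduced line is available for comparison. The labels do not explain NT, and they do not say from which animals the lines were derived, so a p-value reflects only how these samples spread, which may be technical.

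Neighbouring genes on a chromosome are mostly controlled one by one, by their own promoters and enhancers. A shift shared by most genes of a chromosome or of a long stretch of it is a pattern of another kind, and in cultured and tumour-derived cells it is commonly examined because whole chromosomes can be gained or lost there. Mouse chromosome 8 carries genes with well-known parts in epithelial and tumour biology, among them the cell adhesion gene Cdh1, the receptor gene Fgfr1 and the metallothionein cluster. Counts of RNA do not measure chromosome copies, and DNA was not analysed here.

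Promoter sequences are shown for 4 members, since a shift over a whole chromosome and a difference at single promoters can then be read side by side. Mt1 and Mt2 are neighbours whose lines are ordered unlike those of most members, and Map3k21 and Adgrg3 are called members with very few counts in EIC. The sequences are the 250 bases before the transcription start in RefSeq (GRCm38.p6), all on the plus strand, at chr8:94178839-94179088 for Mt1, chr8:94172368-94172617 for Mt2, chr8:125910200-125910449 for Map3k21 and chr8:95017442-95017691 for Adgrg3. Capitals mark the core of the metal response element, searched as TGCACNC or TGCGCNC, in Mt1 and Mt2, and the GC box GGGCGG in Map3k21 and Adgrg3, each on either strand.
Mt1: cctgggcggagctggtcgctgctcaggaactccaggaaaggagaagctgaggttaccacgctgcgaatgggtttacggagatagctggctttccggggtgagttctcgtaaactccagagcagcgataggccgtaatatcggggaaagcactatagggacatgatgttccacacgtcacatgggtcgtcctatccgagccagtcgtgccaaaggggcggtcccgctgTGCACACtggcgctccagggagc
Mt2: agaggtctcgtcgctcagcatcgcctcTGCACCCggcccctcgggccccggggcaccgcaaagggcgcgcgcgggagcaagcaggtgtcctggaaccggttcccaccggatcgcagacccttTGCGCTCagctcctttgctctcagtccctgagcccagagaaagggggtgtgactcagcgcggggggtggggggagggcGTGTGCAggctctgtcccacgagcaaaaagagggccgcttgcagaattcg
Map3k21: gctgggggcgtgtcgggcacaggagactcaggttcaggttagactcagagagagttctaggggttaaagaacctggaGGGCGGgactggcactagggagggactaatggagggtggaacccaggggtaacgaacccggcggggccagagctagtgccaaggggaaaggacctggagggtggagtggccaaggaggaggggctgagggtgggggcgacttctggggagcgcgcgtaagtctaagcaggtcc
Adgrg3: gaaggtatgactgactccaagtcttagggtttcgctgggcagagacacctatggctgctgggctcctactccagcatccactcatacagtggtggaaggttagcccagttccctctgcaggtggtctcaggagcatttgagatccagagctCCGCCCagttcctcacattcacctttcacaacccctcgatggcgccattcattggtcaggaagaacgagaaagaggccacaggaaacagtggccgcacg
The Mt1 window held 1 match to TGCACNC and none to TGCGCNC, and the Mt2 window held 2 and 1. In the deposited table Mt1 starts at 94179082 and Mt2 at 94172664, so the RefSeq starts used for these windows differ from it. Matches outside the windows were not counted. TGCACNC occurred in 10.3% of the 26794 promoters of the table and in 10.7% of the 420 members matched to it by symbol. TGCGCNC occurred in 12.7% of all promoters, 22.9% of the 8867 promoters of genes with at least 300 counts and 25.7% of those members. GGGCGG, found once in Map3k21 and once in Adgrg3, occurred in 33.2% of all promoters, 61.9% of those of counted genes and 63.3% of the matched members, so its presence is no mark of either gene. A match is a description of letters and not of a bound site.

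Most chromosome 8 members had lower RNA levels in EIC_4026 and EIC_7559 than in the other 4 lines, EIC_NT included. Levels were compared as log2 CPM, where CPM is the count scaled to its library's effective size. For each gene the mean of EIC_4026 and EIC_7559 minus the mean of EIC_NT and the 3 16IC lines was taken. The median of this difference over the 625 members was -0.37 (quartiles -0.69 and -0.08), a level of 77.2% of that in the other lines. The median over the 10962 genes of the other chromosomes was 0.04. The difference was below 0 in 495 members, or 79.2%, against 48.5% of all genes with at least 300 counts. These are samples of bulk RNA, in which fewer cells of a type and less RNA per cell cannot be told apart.

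**Figure D1:**
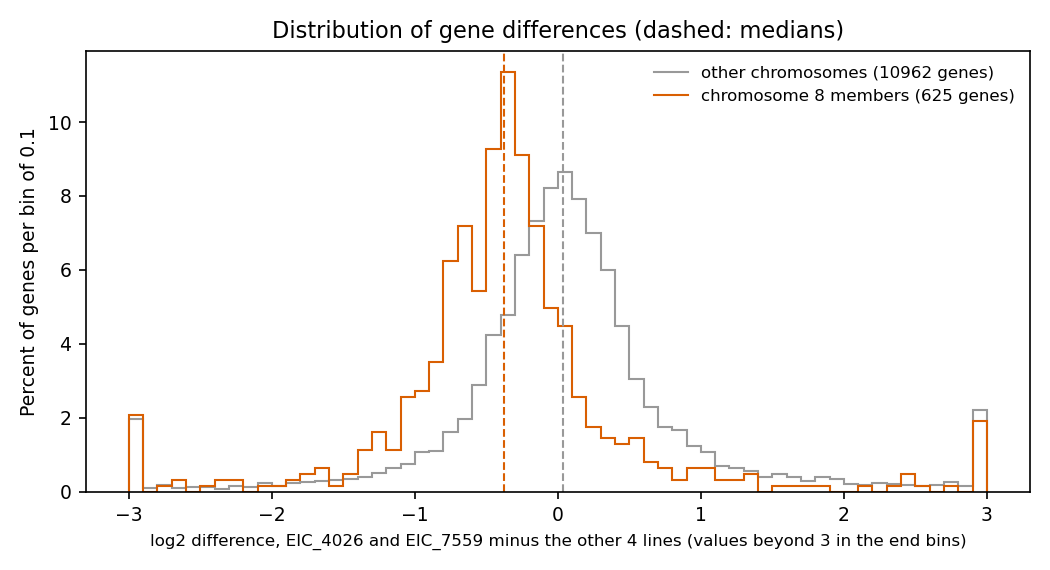
Distribution of the log2 difference between the mean of EIC_4026 and EIC_7559 and the mean of the other 4 lines, as the percent of genes per bin of 0.1, for 625 chromosome 8 members and 10962 genes of other chromosomes, with dashed lines at the medians. The chromosome 8 distribution is shifted to the left but overlaps the other widely, with its median at -0.37 against 0.04.

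Each line was also set against the gene's mean over all 6 lines. The median over members was -0.24 in EIC_4026 and -0.26 in EIC_7559. It was 0.18 in EIC_NT, 0.15 in 16IC_1984, 0.17 in 16IC_4982 and 0.06 in 16IC_7391. EIC_4026 and EIC_7559, here called the pair, thus lay below the other 4. Over the pooled genes of other chromosomes the same medians stayed between -0.04 and 0.04, where the scaling of the libraries holds them near 0. Single chromosomes departed further, with EIC_NT at -0.48 on chromosome 12 and 0.66 on chromosome 14. Chromosome 8 took 3.51% of all counts in EIC_4026 and 3.43% in EIC_7559. The share was 4.61% in EIC_NT and 5.05, 5.15 and 4.53% in 16IC_1984, 16IC_4982 and 16IC_7391. Members held between 99.1 and 99.5% of the chromosome's counts in every line.

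The comparison of single lines gave the same order. EIC_4026 lay below EIC_NT by a median log2 difference of -0.42 over the members, and 77.1% of members were lower in EIC_4026. EIC_NT lay above EIC_7559 by 0.45. EIC_4026 and EIC_7559 differed by a median of -0.01, with 50.4% of members lower in EIC_4026. Against the 3 16IC lines, EIC_4026 was at -0.39, -0.39 and -0.33, and EIC_7559 was at -0.41, -0.42 and -0.33. EIC_NT differed from the 16IC lines by 0.02, 0.01 and 0.09, so its median over all members was near theirs and not near that of the other EIC lines. This likeness did not hold in every window. The window median of the 16IC mean minus EIC_NT ran from -0.68 in the sixth window to 0.36 in the first. These comparisons share lines and are not independent of each other.

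Members whose lines did not overlap in this split were counted as well. Both EIC_4026 and EIC_7559 lay below all 4 other lines in 229 members, or 36.6%, against 11.6% of all genes with at least 300 counts. Both lay above all others in 23 members, or 3.68%, against 12.5%. The shift was made of many moderate differences. Only 76 members, or 12.2%, were lower by more than 1 on the log2 scale, against 7.08% of genes on other chromosomes, and 34 members, or 5.44%, were higher by more than 1, against 9.22%.

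The lower level of EIC_4026 and EIC_7559 ran along the whole chromosome. The median difference was negative in all 13 windows, from -0.61 in the first window (bases 1 to 10000000) to -0.16 in the fourth (30000001 to 40000000). Between 61.5 and 100% of the members of a window were below 0. In 12 of 13 windows both lines had a lower window median than each of the other 4. In the first window all 26 members were below 0, and the line medians were -0.39, 0.02 and -0.41 in EIC_4026, EIC_NT and EIC_7559 and 0.30, 0.29 and 0.37 in 16IC_1984, 16IC_4982 and 16IC_7391. In the ninth window (80000001 to 90000000), which holds Junb, Prdx2, Calr and Mast1, 64 of 69 members were below 0 and the median was -0.43. In the last window (120000001 to 130000000) 61 of 76 members were below 0 and the median was -0.45.

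The sixth window (50000001 to 60000000) was the exception. It held the fewest members, 10, and its line medians were 0.00, 0.57 and -0.01 in the EIC lines in the order above and 0.15, 0.06 and -0.48 in the 16IC lines. There 16IC_7391 was the lowest line and EIC_NT the highest, and the 16IC minus EIC median was -0.31. Leaving out EIC_NT moved the window's difference of the pair to 0.079, and leaving out 16IC_7391 moved its 16IC minus EIC median to 0.041. In the fourth window, which had the smallest difference, leaving out 16IC_4982 left -0.070.

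**Figure D2:**
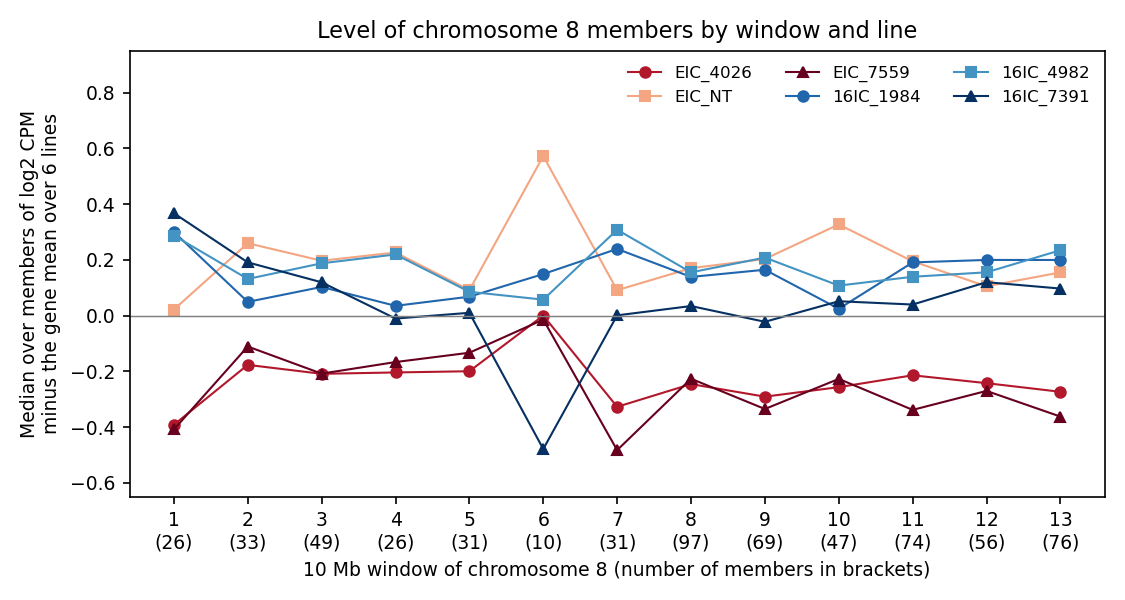
Median over the members of each 10 Mb window of log2 CPM minus the gene's mean over the 6 lines, by line, with the number of members in brackets. EIC_4026 and EIC_7559 run below the other 4 lines in 12 of 13 windows, and the sixth window, with 10 members, departs from this.

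Within a window the lines EIC_4026 and EIC_7559 kept close to each other and apart from EIC_NT. The median difference of EIC_4026 from EIC_NT ranged from -0.69 to -0.22 over the windows. That of EIC_7559 from EIC_NT ranged from -0.56 to -0.28. No window had either line at or above EIC_NT by this measure. Over 237 windows of 10 Mb on the other chromosomes with at least 10 such genes, the difference of the pair from the other lines had a median of 0.03, and 5 and 95% of these windows lay below -0.24 and 0.41. Both lines lay below the other 4 in 30 of those windows, or 12.7%. Of the 10 windows with the lowest values among all 250, chromosome 8 had 8.

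Chromosome 8 had the lowest median of the 20 chromosomes compared in this split. The others ranged from -0.24 on chromosome 13 to 0.33 on chromosome 19. The share of genes with both lines below all others was 36.6% on chromosome 8, 25.6% on chromosome 13 and as little as 2.93% on chromosome 5. A lower level than EIC_NT was not particular to chromosome 8. EIC_4026 and EIC_7559 were at -0.32 and -0.32 against EIC_NT on chromosome 13 and at -0.55 and -0.52 on chromosome 14, where the 16IC lines were lower still and the 16IC minus EIC median was -0.64.

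**Figure D3:**
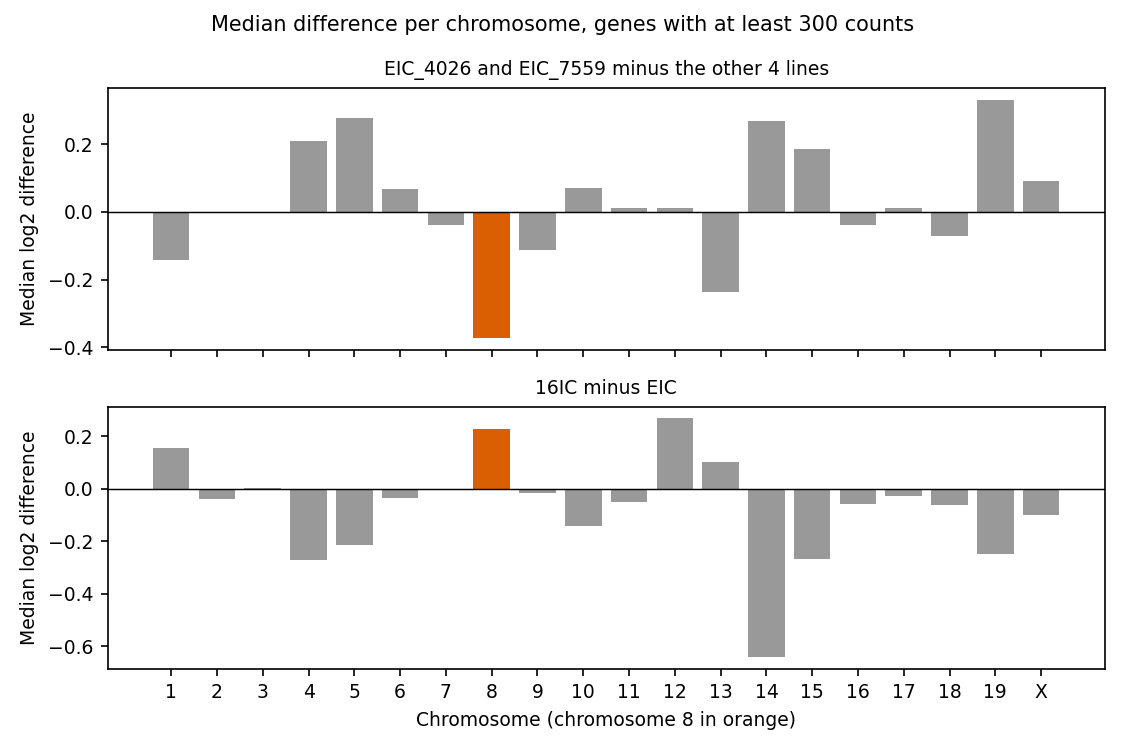
Median log2 difference over genes with at least 300 counts on each chromosome, above for EIC_4026 and EIC_7559 minus the other 4 lines and below for 16IC minus EIC, with chromosome 8 in orange. Chromosome 8 is the lowest in the upper plot at -0.37 and the second highest in the lower plot at 0.23, after chromosome 12.

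The difference was read within classes of members. Strand, gene length and gene type had not been used in choosing them, while the level is tied to the summed count that was. The 326 members on the plus strand had a median of -0.38 and the 299 on the minus strand -0.35. Ordered by mean level over all lines, the lowest, middle and highest classes, of equal size over all genes with at least 300 counts, were at -0.34, -0.38 and -0.37. Ordered by gene length, the shortest class was at -0.27 and the middle and longest at -0.42 and -0.43. On other chromosomes the same length classes were at 0.09, 0.03 and -0.02. The 597 protein-coding members had a median of -0.38. The 12 processed pseudogenes went the other way, at 0.30, with 2 of 12 below 0. Reads of a processed pseudogene can be shared with its parent gene elsewhere in the genome, so these 12 are uncertain, and pseudogenes of other chromosomes were at 0.17.

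Of the markers of other cell types, Pdgfra, Fabp4 and Kdr were highest in EIC_4026 and EIC_7559, while most others did not separate these lines. The 4 measured of 5 fibroblast markers summed to 89.1 and 104 CPM in these lines, against 7.16 in EIC_NT and 7.29 to 21.6 in 16IC. Pdgfra made up 87.8 and 99.97 CPM of it. Col1a2 was at 0 in both, Col1a1 was at 0.513 and 1.99 CPM against 1.08 to 4.99 CPM elsewhere, and Dcn was at 0.798 and 1.87 CPM against at most 1.23 CPM. Fabp4, the 1 adipocyte marker of 3 in the table, was at 22.1 and 42.1 CPM in the pair and at most 1.88 CPM elsewhere. The endothelial sum, over 3 of 4 markers, was 3.82 and 1.74 CPM against 0.120 to 0.584, of which Kdr alone gave 3.76 and 1.43 CPM. Cdh5 and Pecam1 stayed at or under 0.249 CPM in every line. The leukocyte sum, over 3 of 5, was 17.6 and 47.7 CPM in the pair and 7.77 to 19.1 CPM elsewhere, nearly all of it Cd68, with Ptprc at most 0.306 and Lyz2 at most 0.114 CPM in any line. The part of these genes in the chromosome 8 difference was not tested. The epithelial keratins Krt8 and Krt18 were at 580.4 to 2652 and 563 to 1999 CPM in all 6 lines. The sum of the 6 luminal markers was 3191, 2254 and 3188 CPM in EIC and 6489, 6292 and 1321.5 CPM in 16IC, so it was lowest in 16IC_7391. Epcam was at most 3.79 CPM in EIC and at 1159.6, 1345 and 51.1 CPM in 16IC, and Elf5 at most 0.124 CPM in EIC and at 41.5, 63.0 and 2.79 CPM in 16IC. Cldn3 was at 169, 45.2 and 191 CPM in EIC and 706, 791 and 124 CPM in 16IC. Krt19 went the other way, at 7.70, 198 and 10.1 CPM in EIC and at most 0.649 CPM in 16IC. Basal Krt5 and Acta2 did not pass 0.130 CPM in any line, but Trp63 reached 11.5 CPM in EIC_NT and Krt14 13.1 CPM in 16IC_1984.

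The most abundant members show what the shift amounts to in single genes. Itgb1, the beta-1 integrin chain that joins cells to matrix, was at 727, 1419 and 840.3 CPM in EIC_4026, EIC_NT and EIC_7559. It was at 1588, 1870.2 and 1241 CPM in 16IC_1984, 16IC_4982 and 16IC_7391. Both lines of the pair lay below the others, 1.93 times lower on average. Lamp1, a lysosomal membrane protein, was at 683, 1123 and 939 CPM in EIC and 1035, 1289.9 and 1516 CPM in 16IC, in the same orders. Here too the pair was lowest, by 1.53 times. Cpe, which trims peptide hormones, had the largest summed count of its window and the highest level per length of the members named here, with a mean of 566 FPKM over the 6 lines in the authors' deposited values. It departed from the pattern, with 1096, 780.4 and 1425 CPM in EIC and 1419.6, 1995 and 2326 CPM in 16IC. EIC_NT was its lowest line.

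Saraf, a regulator of store-operated calcium entry, was at 96.9, 272 and 96.8 CPM in EIC and 122, 139 and 178 CPM in 16IC, so that the pair was lowest and EIC_NT highest. Among other members with the highest count in their window, Sorbs2 lay 3.65 times lower in the pair, Spcs3 1.15 times and Calr 1.13 times, while Glg1 was 1.09 times higher. Efnb2 lay 1.03 times lower. These abundant genes thus lay on both sides of the median of all members.

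The largest differences of the pair lay far beyond the shift of the chromosome. Members were named here among those with no overlap between the pair and the other lines and at least 10 CPM on the higher side. On the low side Cdh1, which encodes E-cadherin, the adhesion molecule of epithelial junctions, was at 88.7, 307 and 56.4 CPM in EIC and 1054, 994 and 271 CPM in 16IC. EIC_NT lay among the 16IC lines, above 16IC_7391, and the pair was 7.67 times lower than the others. Ldhd, a mitochondrial D-lactate dehydrogenase, was at 4.05, 15.4 and 7.21 CPM in EIC and 232, 584 and 60.5 CPM in 16IC. Nrp1, a co-receptor for VEGF and semaphorins, was at 7.41, 56.6 and 21.9 CPM in EIC and 66.1, 57.4 and 60.7 CPM in 16IC, with EIC_NT next to the 16IC lines. Adgrl1, an adhesion G-protein-coupled receptor, was at 2.79, 67.2 and 1.99 CPM in EIC and 26.7, 14.0 and 9.41 CPM in 16IC, with EIC_NT above all other lines. The pair was also lower by 9.85 times for the secreted protein gene Crispld2, 5.17 times for Mfap3l and 4.85 times for Cotl1, an actin-binding protein. Zfp612, Adgrg3 and Esrp2 complete the 10 lowest, and each was low in EIC_NT as well.

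On the high side Cdh13, a cadherin held in the membrane by a lipid anchor, was at 72.9, 0.241 and 147 CPM in EIC and 3.19, 8.99 and 5.64 CPM in 16IC. Gdf15, a stress-induced cytokine, was at 20.9, 0.481 and 30.5 CPM in EIC and 0.482, 1.10 and 0.584 CPM in 16IC. In both genes EIC_NT was as low as the 16IC lines or lower, and only the pair was high. Ndrg4 was at 49.7, 10.3 and 69.3 CPM in EIC and 8.37, 15.4 and 4.02 CPM in 16IC. Nqo1, a quinone reductase, was at 12.5, 7.16 and 32.6 CPM in EIC and 10.7, 4.53 and 5.58 CPM in 16IC, where the lower line of the pair lay just above 16IC_1984. The remaining genes of this side were Mt3, Defb1, Cpne2, Hapln4, B3gnt3 and Tmem221, with the pair between 2.59 times (Tmem221) and 47.4 times (Mt3) higher. Cdh1 and Cdh13, both cadherins in neighbouring windows, thus ordered the pair against the other lines in opposite ways.

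The second comparison was of the groups, 16IC against EIC, and it asks which genes differ between lines that carry the splice form and lines that carry the wild-type receptor. Over the members the median of the 16IC mean minus the EIC mean was 0.23 on the log2 scale (quartiles -0.13 and 0.61), against -0.07 on other chromosomes. The difference was above 0 in 413 members, or 66.1%, against 46.0% of all genes with at least 300 counts. Every 16IC line exceeded every EIC line in 145 members, or 23.2%, against 15.8%, and the reverse held in 37 members, or 5.92%, against 15.3%. The window medians were positive in 12 of 13 windows, though the tenth was only at 0.009. The groups' line medians overlapped in all windows except the first and the twelfth. With EIC_NT as the only EIC line, an alternative chosen after seeing the data, the chromosome's median was -0.055. By window it was then above 0 only in the first, at 0.36, and the seventh, at 0.14. This comparison and the first share all 6 lines, and 2 of the 3 EIC lines form the pair, so the values of one are not independent of the other.

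Single members were tested with edgeR's quasi-likelihood test on the whole table, with Benjamini-Hochberg adjustment over 13698 genes. It called 19 of the 625 members at an adjusted p below 0.05, or 3.04%, against 2.45% of all tested genes and 2.50% of tested genes with at least 300 counts. That share is near the background. By direction, 18 members, or 2.88%, were higher in 16IC, against 1.25% of all tested genes and 1.21% of those with at least 300 counts. In the other direction 1 member, or 0.16%, was lower, against 1.20 and 1.29%. The authors' deposited table gave an adjusted p below 0.05 to 84 members, 67 higher and 17 lower, or 13.4%, against 13.2% of genes with at least 300 counts, and all 19 members had the same direction there. An unadjusted p below 0.05 was found in 141 members, 115 higher and 26 lower, or 22.6%, against 22.5% of genes with at least 300 counts. DESeq2 called 86 members, against 12.8% of all genes with an adjusted p from it and 13.6% of those with at least 300 counts. The 2 groups were free of overlap in each of the 19, and likewise in all 288 called genes with at least 300 counts. In 9 of the 19 EIC_4026 and EIC_7559 lay below the other 4 lines, as they did in 55 of the 288. Where the groups do not overlap, only a rise can have this order. Rises were 18 of the 19 but 139 of the 288, so these shares cannot be compared directly. The same order held in 36.6% of all members and in 11.6% of all genes with at least 300 counts. Leaving out EIC_4026, EIC_7559, 16IC_1984 or 16IC_4982 left 0 called members in each case, with 93 to 106 at an unadjusted p below 0.05. Without EIC_NT 13 members were called, 6 of them among the 19, and without 16IC_7391 90 were called, all 19 among them.

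**Figure D4:**
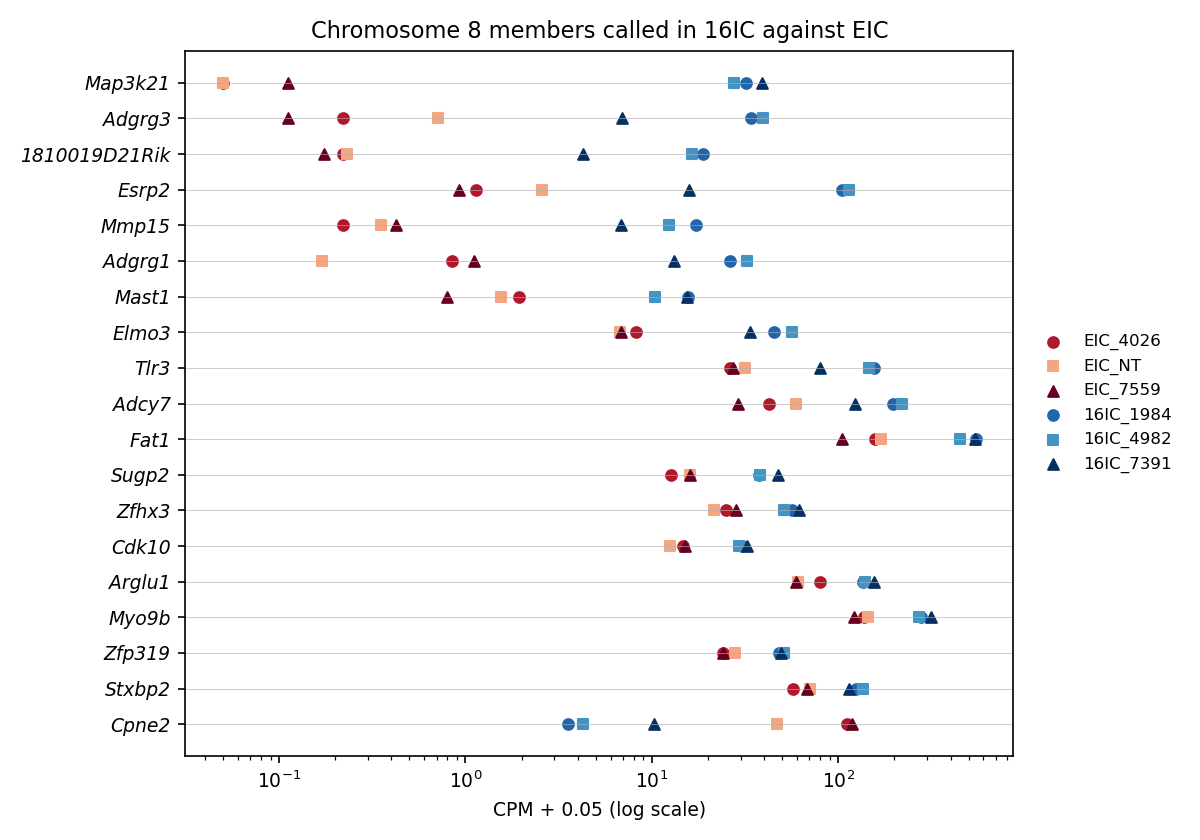
CPM plus 0.05, on a log scale, of the 19 members that edgeR called in 16IC against EIC, with 1 point per line. The groups do not overlap in any row, and Cpne2 is the 1 member with EIC on the right.

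The largest called rises are given first. Adgrg1 (ENSMUSG00000031785, 94974751 to 95014217) and Adgrg3 (ENSMUSG00000060470, 95017692 to 95045250), neighbouring adhesion G-protein-coupled receptors, rose together. Adgrg1 was at 0.798, 0.120 and 1.06 CPM in EIC_4026, EIC_NT and EIC_7559 and at 26.3, 32.2 and 13.0 CPM in 16IC_1984, 16IC_4982 and 16IC_7391. The fitted log2 fold change was 5.16, with an SE of 0.81 and an edgeR adjusted p of 0.0423. Adgrg3 was at 0.171, 0.662 and 0.0622 CPM in EIC and 34.1, 39.4 and 6.88 CPM in 16IC (log2 fold change 6.45 ± 1.08, SE, edgeR adjusted p = 0.0461). In both, 16IC_7391 was the lowest 16IC line and still above every EIC line. Fat1 (ENSMUSG00000070047), a very large protocadherin, was at 157, 168 and 105 CPM in EIC and 547, 449 and 539 CPM in 16IC, 143 ± 34.0 against 511 ± 54.3 CPM (SD, n = 3), with a log2 fold change of 1.84 ± 0.24 (SE, edgeR adjusted p = 0.0369).

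Mmp15 (ENSMUSG00000031790), a matrix metalloprotease bound to the membrane, was at 0.171, 0.301 and 0.373 CPM in EIC and 17.2, 12.4 and 6.75 CPM in 16IC (log2 fold change 5.39 ± 0.57, SE, edgeR adjusted p = 0.0267). Tlr3 (ENSMUSG00000031639), the endosomal receptor for double-stranded RNA, was at 26.2, 31.6 and 27.1 CPM in EIC. It was at 156, 146 and 79.5 CPM in 16IC, a log2 fold change of 2.17 ± 0.29 (SE, edgeR adjusted p = 0.0369). The 3 EIC lines were within a narrow range here and EIC_NT did not stand apart. Adcy7 (ENSMUSG00000031659), an adenylyl cyclase that makes cyclic AMP, was at 42.4, 59.4 and 28.8 CPM in EIC and 196, 219 and 123 CPM in 16IC (log2 fold change 2.04 ± 0.35, SE, edgeR adjusted p = 0.0467). For this gene EIC_NT was the highest EIC line, and it lay under 16IC_7391.

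Elmo3 (ENSMUSG00000014791), of a family that works with DOCK proteins to activate Rac, was at 8.21, 6.68 and 6.78 CPM in EIC and 44.9, 56.7 and 33.5 CPM in 16IC (log2 fold change 2.64 ± 0.27, SE, edgeR adjusted p = 0.0257). Its upstream neighbour E2f4 had means that differed by less than their spread, 76.2 ± 11.7 CPM in EIC and 76.0 ± 19.5 CPM in 16IC (SD, n = 3). The kinase gene Mast1 (ENSMUSG00000053693) was at 1.88, 1.50 and 0.746 CPM in EIC and 15.6, 10.3 and 15.4 CPM in 16IC (log2 fold change 3.31 ± 0.46, SE, edgeR adjusted p = 0.0370). Esrp2 (ENSMUSG00000084128), a splicing regulator of epithelial cells, averaged 1.49 ± 0.901 CPM over EIC and 78.1 ± 54.2 CPM over 16IC (SD, n = 3), with 16IC_7391 at 15.8 CPM and the other 16IC lines at 105 and 114. Epcam was likewise lower in 16IC_7391, at 51.1 CPM, than in the other 16IC lines. The called model 1810019D21Rik overlaps Esrp2 on the other strand, at 0.159 ± 0.0301 and 13.1 ± 7.82 CPM (SD, n = 3), and without a stated strand their reads cannot be told apart. Map3k21 (ENSMUSG00000031853), one of the mixed-lineage kinases, was seen with 1 count over the 3 EIC lines and with 32.1, 27.6 and 38.8 CPM in 16IC (edgeR adjusted p = 0.0180).

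The other 7 called rises, named here after their values were seen, were smaller and had little spread between lines. Their log2 fold changes ran from 0.94 for Stxbp2, which acts in the release of secretory granules, to 1.46 for Sugp2, and their adjusted p-values from edgeR were 0.0389 to 0.0480. Cdk10, a cyclin-dependent kinase, was at 14.6, 12.5 and 14.9 CPM in EIC and 30.5, 29.3 and 32.2 CPM in 16IC. Zfhx3, a homeobox transcription factor, was at 24.9, 21.5 and 28.2 CPM in EIC and 56.3, 51.0 and 61.2 CPM in 16IC. In these genes EIC_NT lay with the other EIC lines. Arglu1, Myo9b and Zfp319 make up the rest, at 1.10, 1.10 and 0.96. The single fall was Cpne2 (ENSMUSG00000034361), which encodes a copine, a calcium-dependent membrane-binding protein. It was at 111, 46.6 and 118 CPM in EIC and 3.49, 4.22 and 10.2 CPM in 16IC (log2 fold change -3.95 ± 0.59, SE, edgeR adjusted p = 0.0390), with EIC_NT between the pair and the 16IC lines.

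Tested genes that start within 500 kb of a called member were read as its surroundings. For the counts below, edgeR called 2.45% of all tested genes. By the difference of group means, 66.1% of members and 46.0% of all genes with at least 300 counts were above 0. Around Elmo3 none of 18 neighbours was called and their median log2 fold change was 0.31. Around Esrp2 1 of 23 was called, the overlapping model, and the median was 0.05, with 15 of 23 above 0. Around Mmp15 3 of 17 and around Adgrg1 4 of 18 were called, with medians of 0.27 and 0.17, and these called neighbours are the same few genes seen from each other. Cpne2 lies in this cluster too, and the median over its 19 neighbours was -0.10, with 6 above 0. Map3k21 had 3 neighbours, at -3.26 for Sipa1l2, -0.05 for Ntpcr and 6.66 for Kcnk1, none called. Around Stxbp2, with a log2 fold change of 0.94, 9 of 10 neighbours were above 0 and their median was 0.58. Around Cdk10, at 1.13, 15 of 16 were above 0 with a median of 0.54, and the 4 neighbours of Tlr3, at 2.17, had a median of 0.99 with Fat1 among them. Medians over neighbours thus ran from -0.10 to 0.99 in the regions given here.

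Gene lists were read next, in the order of their roles. For the counts of every list, 79.2% of all members were below 0 in the pair comparison. Among tested genes with at least 300 counts edgeR called 2.50%, and 22.5% had an unadjusted p below 0.05 from it. DESeq2 called 13.6% of such genes. The lists hold between 3 and 20 members, so single genes weigh heavily in these counts. Of 9 cadherin genes listed, 6 are on the chromosome in the table and 3 were members. Fat1 and Cdh1 were lower in the pair and Cdh13 higher, and of these edgeR called Fat1 alone, with 2 of 3 at an unadjusted p below 0.05, while DESeq2 called all 3. Cdh1 was 151 ± 137 CPM in EIC and 773 ± 436 CPM in 16IC (SD, n = 3), a log2 fold change of 2.36 ± 0.81 (SE, edgeR adjusted p = 0.159). Of 10 matrix and protease genes 6 were members, with a median of -0.58 in the pair comparison and 5 of 6 below 0, and edgeR called Mmp15 as higher and none as lower, while DESeq2 called 2. The basement membrane collagen genes Col4a1 and Col4a2, which share a promoter region and face away from each other, were ordered by line and not by group. Col4a1 was at 319, 91.2 and 358 CPM in EIC and 1139.8, 1521 and 164 CPM in 16IC, and Col4a2 at 269, 117 and 281 CPM in EIC and 703, 1007 and 150.4 CPM in 16IC. For both, EIC_NT was the lowest line and 16IC_7391 came next.

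The metallothioneins, small proteins that bind zinc and copper, differed from most members. All 3 members, out of 4 genes listed, were higher in the pair on average, with a median of 3.26, and lower in 16IC on average. Mt1, whose promoter is printed above, was at 147, 485 and 289 CPM in EIC and 55.4, 28.8 and 165 CPM in 16IC. Mt2 was at 5.25, 23.3 and 17.7 CPM in EIC and 0, 0.122 and 1.43 CPM in 16IC, and Mt3 was at 14.3, 6.56 and 39.0 CPM in EIC and 0, 0 and 0.519 CPM in 16IC. EIC_NT was the highest line for Mt1 and Mt2 and the lowest EIC line for Mt3. Both lines of the pair thus lay above all others in Mt3 alone. The groups did not overlap for Mt2 and Mt3, and they did for Mt1, where 16IC_7391 lay above EIC_4026. edgeR called none of the 3, with adjusted p-values of 0.200, 0.118 and 0.0716, while 3 had an unadjusted p below 0.05, and DESeq2 called Mt2 and Mt3.

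**Figure D5:**
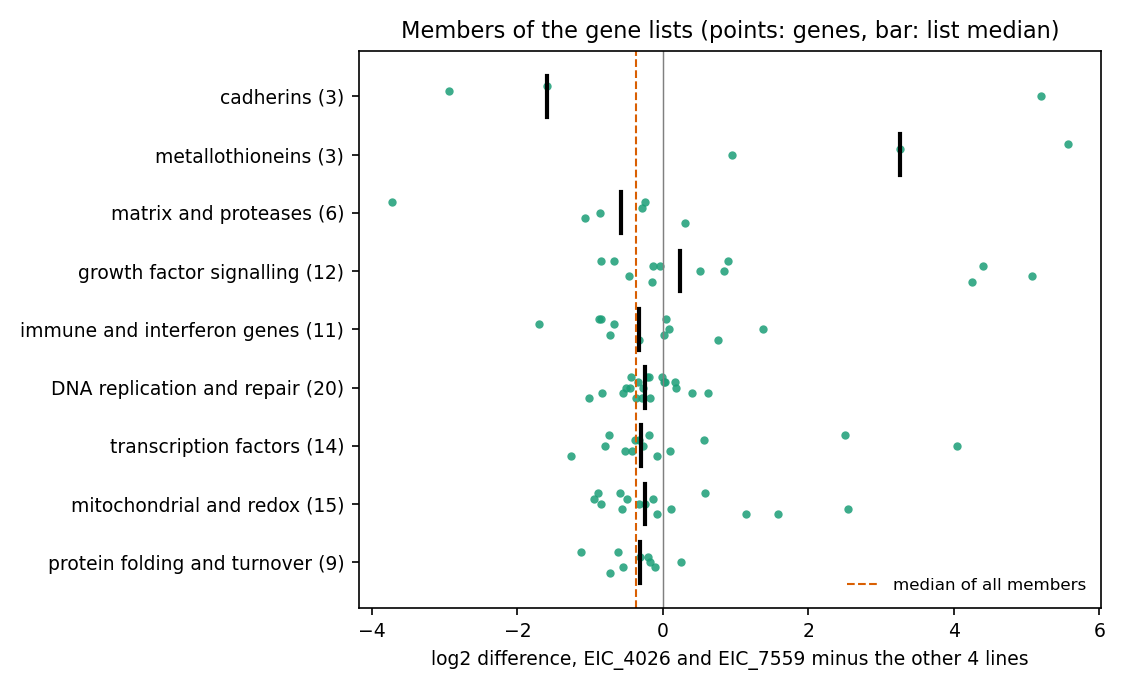
Log2 difference between EIC_4026 and EIC_7559 and the other 4 lines for the members of each gene list, with 1 point per gene, a bar at the list's median and a dashed line at the median of all members. The metallothionein members lie to the right of 0, and most other lists straddle the dashed line at -0.37.

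Growth factor genes spread widely. Of 14 listed, 12 were members, 6 of them below 0 in the pair comparison, with a list median of 0.24, and edgeR called 0 of 12 in the group comparison, where 4 had an unadjusted p below 0.05 and DESeq2 called 4. Fgfr1, a receptor for fibroblast growth factors, was at 408, 1051 and 572 CPM in EIC and 82.4, 90.9 and 577 CPM in 16IC, with 16IC_7391 among the EIC lines. Gas6, the ligand of the AXL family of receptors, was at 185, 313 and 195 CPM in EIC and 0.120, 1.28 and 93.1 CPM in 16IC. Insr, the insulin receptor, did separate the groups, at 72.9, 66.3 and 80.2 CPM in EIC and 129, 192 and 137 CPM in 16IC (log2 fold change 1.06 ± 0.21, SE, edgeR adjusted p = 0.0590). Bcar1, an adaptor of integrin signalling, was at 108, 145 and 121 CPM in EIC and 279.9, 231 and 197 CPM in 16IC (edgeR adjusted p = 0.0748). In Fgfr1 and Gas6 16IC_7391 lay far above the other 16IC lines, while in Insr and Bcar1 every 16IC line lay above every EIC line.

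Among immune and interferon genes 11 of 16 were members, with a median of -0.33 in the pair comparison and 6 of 11 below 0, and edgeR called Tlr3 as higher in 16IC and none as lower, while DESeq2 called 2. Ikbkb, the kinase that frees NF-kappaB, was at 57.0, 80.7 and 52.4 CPM in EIC and 103, 111 and 110.2 CPM in 16IC, with the pair lowest. Nlrc5, a transactivator of MHC class I genes, was at 24.6, 61.1 and 22.8 CPM in EIC and 1.75, 1.04 and 52.8 CPM in 16IC, and the antiviral gene Bst2 at 406, 366 and 526 CPM in EIC and 185, 173 and 474 CPM in 16IC. For these the pair was not lowest, and 16IC_7391 lay with the EIC lines. Transcription factor genes gave 14 members of 22 listed, with a median of -0.30, 10 below 0 and Zfhx3 as the 1 call by edgeR, a rise, while DESeq2 called Zfhx3 and Junb. Junb, a subunit of AP-1, was at 109, 209 and 124 CPM in EIC and 298, 391 and 252 CPM in 16IC, with EIC_NT between the pair and the 16IC lines.

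All 20 genes of the DNA replication and repair list were members. Its median in the pair comparison was -0.25, with 14 of 20 below 0 and 2 of 20 with both lines lowest. Both lines were lowest in 36.6% of all members and in 11.6% of all genes with at least 300 counts. In the group comparison edgeR called 0 of 20, where 1 had an unadjusted p below 0.05 and DESeq2 called Polb alone. Polb, the polymerase of base excision repair, was at 9.41, 10.9 and 10.4 CPM in EIC and 27.5, 27.4 and 20.1 CPM in 16IC (log2 fold change 1.28 ± 0.23, SE, edgeR adjusted p = 0.0517). Cdt1, which licenses replication origins, was at 64.9, 67.0 and 63.7 CPM in EIC and 62.1, 63.9 and 11.4 CPM in 16IC. Mcm5, a subunit of the replicative helicase, was at 103, 135 and 44.0 CPM in EIC and 131, 91.0 and 23.5 CPM in 16IC. In both of these 16IC_7391 was the lowest line.

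All 15 listed mitochondrial and redox genes were members, with a median of -0.25 in the pair comparison, 10 of them below 0 and 6 with both lines lowest, where 36.6% of all members had both lines lowest. Cox4i1, a subunit of cytochrome c oxidase, was at 171, 326 and 162 CPM in EIC and 297, 298 and 279 CPM in 16IC. Prdx2, a peroxide-removing enzyme, was at 91.7, 221 and 115 CPM in EIC and 207, 195 and 170.0 CPM in 16IC. In both the pair lay 1.80 and 1.92 times below the other lines, and EIC_NT was the highest line. Ndufa13 and Ndufb7 of respiratory complex I, the adenine nucleotide carrier Slc25a4 and Dhodh of pyrimidine synthesis had the pair lowest too, by 1.25 to 1.86 times. Hmox1, the inducible heme oxygenase, went the other way, at 100.4, 34.3 and 74.7 CPM in EIC and 36.5, 33.4 and 56.5 CPM in 16IC, as did Nqo1. edgeR called 0 of these 15 between the groups, where 2 had an unadjusted p below 0.05 and DESeq2 called Cyba alone.

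Of 10 protein folding and turnover genes 9 were members, with a median of -0.32, 8 below 0 and 4 with both lines lowest, again beside 36.6% of all members, and edgeR and DESeq2 called 0 of 9, where 1 had an unadjusted p below 0.05. Lamp1, the ubiquitin ligase Wwp2, Nae1 of the NEDD8 pathway and the heat shock factor binding protein Hsbp1 were these 4. Hsbp1 was at 58.9, 107 and 64.8 CPM in EIC and 85.9, 83.2 and 87.8 CPM in 16IC, so the 16IC lines were nearly alike and the EIC lines were split. Calr, the calcium-binding chaperone of the endoplasmic reticulum, was at 841, 1089.7 and 624 CPM in EIC and 687, 512 and 1185 CPM in 16IC, with no order by group or pair. Aars, the alanyl-tRNA synthetase, was the 1 member above 0, at 0.25 in the pair comparison.

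Few facts of the libraries bear on these values. Total counts ranged from 15621563 to 17468498 per line, and the 10 most abundant genes took between 4.31 and 7.51% of them. Mitochondrially encoded genes took between 0.926 and 1.50% of the counts in the EIC lines and between 1.997 and 3.39% in the 16IC lines. EIC_4026 and EIC_7559 were alike over all tested genes, with a Spearman correlation of 0.979 across genes, which are not independent replicates, against 0.925 and 0.917 for EIC_NT with either. 16IC_1984 and 16IC_4982 reached 0.989, with 16IC_7391 at 0.874 and 0.880 to them. Their counts differed beyond sampling noise, with a chi-square of 19.2 per gene, and every line was kept as a sample of its own. Of the 625 members 282 overlap a gene on the other strand and 144 one on the same strand, and whether the counting used strand is not stated.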

How the data were processed

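RNA from 6 cell lines, 3 EIC and 3 16IC, was sequenced. Per the submitters' processing notes, the tools were limma, edgeR, HTSeq, STAR and Trimmomatic and the builds GRCm38 and mm10, with no role or version given. The authors' deposited table holds the authors' read count per gene and line, a normalised signal that the authors made from those counts, the authors' FPKM, and the authors' log2 fold change with its p-value. All fits here started from the deposited counts, and the FPKM was read only for levels per length.

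Genes were filtered with edgeR's filterByExpr by group (minimum count 10), which kept all 625 members and 13698 genes in all. Libraries were scaled with TMM factors, and edgeR 4.0.16 (R 4.3.3) tested 16IC against EIC by its quasi-likelihood test, with a Benjamini-Hochberg adjusted p below 0.05 over all tested genes. Levels are CPM, and log2 CPM used a prior count of 2. The fit was tested on simulated data in which the spread between lines was capped. That run therefore does not show how the calls hold under the spread of these lines. All 625 members had the same start and end in GENCODE M21. Promoters came from RefSeq (GRCm38.p6). Counting error limits low values, and counts without molecular identifiers do not give independent molecules.

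Members, lists and tests were chosen with earlier results of these data known. Named genes were the 10 largest called rises and falls, the 10 highest and 10 lowest members in the comparison of EIC_4026 and EIC_7559 with the other lines among those without overlap and with at least 10 CPM on the higher side, the member with the most counts in each window, and up to 4 of each list with the highest CPM. Unnamed models were left out, and 2 window members are not reported here. Insr, Gas6, Polb, Cdt1, Nlrc5, Prdx2, Hmox1, the smaller mitochondrial and turnover genes, the 7 smaller rises and the neighbours of Map3k21 lie outside this rule and were chosen after their values were seen. No batch is given in the labels. Alternatives were other scaling factors, filters, minimum counts, prior counts and tests, the mean in place of the median, windows by gene midpoint, and leaving out each line.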

Additional observations from a re-analysis of the deposited data

How the results depend on the processing

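No paired analysis was possible because the labels give the lines names and no shared replicate numbers. Over the alternatives other than EIC_NT alone, the median over chromosome 8 members stayed between -0.41 and -0.34 for EIC_4026 and EIC_7559 against the other lines, and between 0.14 and 0.35 for 16IC against EIC. Against EIC_NT alone, an alternative chosen after seeing the data, the first was -0.44, and the second, with EIC_NT as the only EIC line, was -0.055. With no filter on low counts edgeR called 223 genes and 12 members, and DESeq2 called 2041 genes and 86 members, all 19 among them, while limma-voom called 287 genes and 16 members. Leaving out each line in turn, edgeR called between 0 and 1913 genes and between 0 and 90 members; where a group kept a pair of lines, the spread was estimated from fewer samples. The cause was not tested. The mean over members in place of the median gave 0.040 in the second window, -0.23 in the third, -0.36 in the fourth, -0.33 in the fifth, -0.12 in the eighth, -0.57 in the ninth, -0.50 in the eleventh, -0.44 in the twelfth and -0.34 in the last. A minimum of 100 or 1000 counts gave -0.31 and -0.30 in the fifth window. Leaving out each line in turn gave -0.39 to -0.25 in the second window, -0.40 to -0.31 in the third, -0.27 to -0.070 in the fourth, -0.35 to -0.22 in the fifth, -0.32 to 0.079 in the sixth, -0.64 to -0.46 in the seventh, -0.38 to -0.27 in the eighth, -0.42 to -0.23 in the tenth, -0.43 to -0.31 in the twelfth and -0.51 to -0.44 in the last. The 16IC minus EIC median of the sixth window ranged from -0.45 to 0.041.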

Other observations

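Some members were high or low in a single line. Sfrp1, a secreted inhibitor of Wnt signalling, was at 96.9, 422 and 75.1 CPM in EIC_4026, EIC_NT and EIC_7559 and at 127, 126 and 152 CPM in 16IC_1984, 16IC_4982 and 16IC_7391. Its level in EIC_NT lay far above all other lines, and EIC_4026 and EIC_7559 lay below the 16IC lines. Cx3cl1, a chemokine that is also a membrane-bound adhesion molecule, was at 85.2, 52.5 and 81.3 CPM in EIC and 48.7, 50.6 and 360.3 CPM in 16IC. Here 16IC_7391 stood apart and the rest overlapped. The homeobox gene Irx3 was at 103, 233 and 159 CPM in EIC and 124, 142 and 113 CPM in 16IC, and Nfix, a nuclear factor I gene, was at 274, 476 and 356 CPM in EIC and 356, 348 and 670.1 CPM in 16IC. Adam9, a membrane protease that sheds surface proteins, was at 277, 363 and 376 CPM in EIC and 177, 219 and 332 CPM in 16IC. In Adam9 no single line stood apart. In the group comparison the edgeR adjusted p-values of these 5 genes ran from 0.371 for Adam9 to 0.670 for Sfrp1.

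The 4 long intergenic RNA members did not share 1 direction. In the comparison of EIC_4026 and EIC_7559 with the other lines their median was -0.90, and 3 of 4 were below 0. Zfp469, placed in this class by the deposited table, was at 8.78, 2.23 and 3.61 CPM in EIC and 25.96, 18.6 and 22.0 CPM in 16IC, with EIC_NT the lowest line (edgeR adjusted p = 0.0884). On chromosome 12 the EIC lines were also split, but the other way: EIC_4026 and EIC_7559 lay above EIC_NT by medians of 0.44 and 0.53 over 414 genes, where on chromosome 8 they lay below it by -0.42 and -0.45.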
